A study of Mus musculus with 10 samples.

Results

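The binding of FLAG-tagged Nanog was compared between mouse pre-iPSCs that also received Sin3a and pre-iPSCs that received an empty vector instead. The comparison rests on 74771 FLAG ChIP-seq peaks, 38485 from the line with Nanog and empty vector (the Nanog line) and 36286 from the line with Nanog and Sin3a (the Nanog + Sin3a line), of 110170 peaks in the 4 lists of the series. Each list stands for 2 replicates and carries no value per replicate. The lists with 17168 Sin3a peaks (Sin3a plus empty vector, the Sin3a line) and 18231 Sin3a peaks (Nanog + Sin3a line) were used to class the FLAG peaks. All peaks of both FLAG lists are members, and all positions are of build mm9.

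All cells were pre-iPSCs made from female neural stem cells of the 129/MF1 background with an Oct4-GFP-IRES-puro reporter. They were kept in serum with LIF on gelatin. The transgenes had been inserted with PiggyBac vectors under the CAG promoter, a strong promoter active in most cell types, and stable lines were selected with drugs. The FLAG antibody reads the tagged protein from the transgene and not the cells' own untagged Nanog. The labels do not say whether a line was 1 clone, nor whether replicates came from separate cultures. Peak lists hold no expression, so the cell type could not be checked against markers.

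Nanog is a homeodomain transcription factor of the pluripotency network that binds enhancers and promoters in embryonic stem cells. Sin3a is a scaffold protein without DNA-binding specificity of its own. It brings the histone deacetylases Hdac1 and Hdac2 to sites chosen by transcription factors, and it is found mostly at promoters with open chromatin. Pre-iPSCs are partly reprogrammed cells in which the network is not yet fully active. The question behind the comparison was where Nanog binds when more Sin3a is present.

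In the Nanog + Sin3a line, FLAG-Nanog sites that carried a Sin3a peak ranked lower and were narrower than in the Nanog line, and sites without one ranked higher. Strong peaks without a partner in the Nanog line lay away from Sin3a, which is partly set by how they were chosen. Summits mostly stayed within 50 bp. The split in rank appeared on 20 of 20 chromosomes, and 1 segment of chromosome 6 stood apart from the rest of the genome. With 1 list per line, no difference could be compared with replicate error and no test was possible. The intervals given are 95% intervals and cover counting error over peaks only.

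Most FLAG peaks had a single partner in the other line. Of the peaks of the Nanog line, 25899 (67.3%, interval 66.8 to 67.8%) shared bases with exactly 1 peak of the Nanog + Sin3a line that had no other partner. In the Nanog + Sin3a line these pairs made up 71.4% (70.9 to 71.8%) of all peaks. A further 2658 peaks of the Nanog line (6.91%) and 3012 of the Nanog + Sin3a line (8.30%) belonged to groups of more than 2 overlapping peaks. The remaining 9928 peaks of the Nanog line (25.8%) and 7375 of the Nanog + Sin3a line (20.3%) had no overlap. Splitting was the commoner form of the grouped peaks: 1144 peaks of the Nanog line, with a median width of 1048 bp, overlapped at least 2 peaks of the Nanog + Sin3a line, and 822 peaks, with a median width of 876 bp, did so in the other direction. Of these wide peaks, 88.9% (86.9 to 90.6%) in the Nanog line and 79.6% (76.7 to 82.2%) in the Nanog + Sin3a line lay at a Sin3a peak. Most wide one-to-one pairs did too. Of 2920 pairs with a mean width of 800 bp or more, only 248 had no Sin3a peak of either list.

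The limit of 1 shared base decided few cases. Paired peaks shared 333 bases in the median. Only 21 pairs shared 20 bases or fewer, with median −log10 q values of 4.45 (Nanog line) and 4.30 (Nanog + Sin3a line). Just outside the limit, 41 unpaired peaks of the Nanog line and 36 of the Nanog + Sin3a line lay under 20 bases from a peak of the other list, with medians of 4.53 and 4.30.

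The order of the shared sites was broadly kept. To compare the lists in spite of their different scaling, the 25899 pairs were ranked by the authors' −log10 q in each list, and each rank was expressed as a percentile from 0 (weakest) to 100 (strongest). Spearman's correlation of the ranks across sites was 0.741, given as a description, since all sites of a list share its library and control. The shift of a site is its percentile in the Nanog + Sin3a line minus that in the Nanog line. The quartiles of the shift were -12.1 and 10.3 points, with a median of -1.05. Shifts of at least 20 points upward were seen at 3721 pairs (14.4%) and downward at 3688 (14.2%). The upward shifts reached further, up to 98.2 points, against -73.9 points for the largest fall.

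The order of sites with Sin3a was closer between the lines than that of sites without. The rank correlation was 0.847 across the 10925 pairs with a Sin3a peak in both Sin3a lists, and 0.621 across the 12039 pairs with a Sin3a peak in neither. It was 0.761 for the 1305 pairs at a Sin3a peak of the Sin3a line only, and 0.770 for the 1630 pairs at one of the Nanog + Sin3a line only. Pairs with Sin3a started from higher ranks, with a median percentile of 65.6 in the Nanog line, against 36.8 for pairs without.

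**Figure D1:**
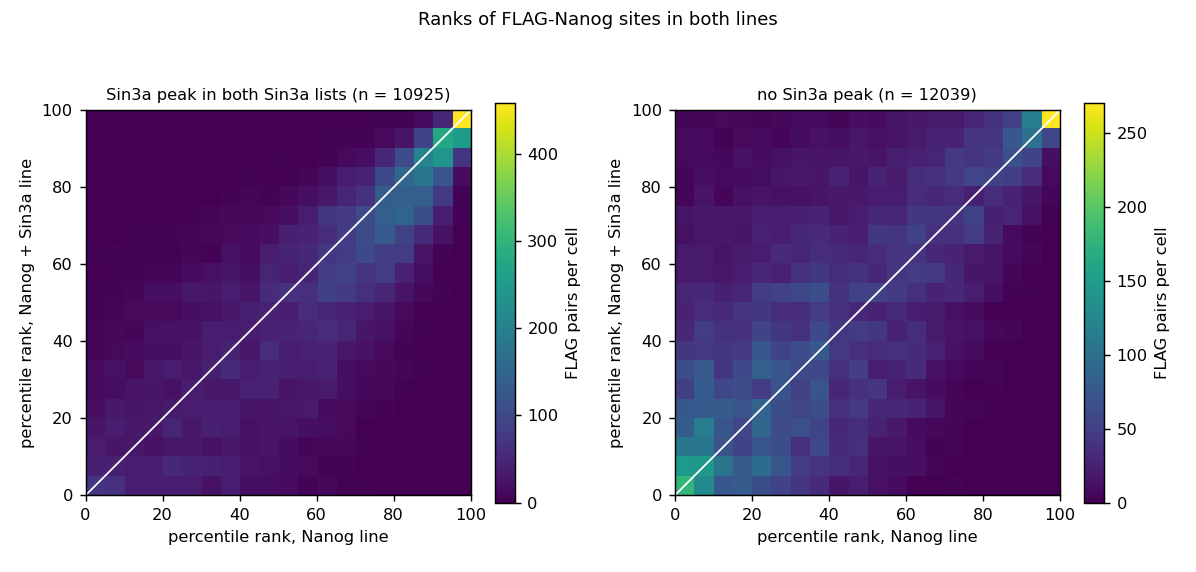
Percentile rank of paired FLAG sites in the Nanog line (horizontal axis) and in the Nanog + Sin3a line (vertical axis), for 10925 pairs with a Sin3a peak in both Sin3a lists (left) and 12039 pairs with none (right). Colour gives the number of pairs in cells of 5 by 5 points, on a separate scale in each panel, and the white line marks equal rank. Pairs with Sin3a lie close to the line and mostly below it, and pairs without Sin3a spread widely on both sides, with 57.4% above it.

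FLAG-Nanog lost rank at sites with Sin3a and gained rank at sites without. The median shift was -3.96 points (interval of the median -4.27 to -3.68) at pairs with a Sin3a peak in both Sin3a lists, and 3.06 points (2.75 to 3.40) at pairs with none. The smaller classes lay between these, at -2.0 points with Sin3a in the Sin3a line only and -1.24 points with Sin3a in the Nanog + Sin3a line only. Of the pairs with Sin3a in both lists, 32.9% ranked higher in the Nanog + Sin3a line, and of the pairs without Sin3a 57.4%. Ranks are relative, so a rise of one class is balanced by a fall of the others.

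Large rises were mostly at sites without Sin3a. A rise of at least 20 points was seen at 2746 of the pairs without Sin3a (22.8%) and at 634 of those with Sin3a in both lists (5.80%), against 14.4% over all pairs. The difference was -17.0 points of share (-17.9 to -16.1). The further a site rose, the less often it carried Sin3a. A Sin3a peak of either list lay at 26.2% (24.8 to 27.6%) of the pairs that rose by 20 points or more, at 11.8% (10.0 to 13.8%) of the 1086 that rose by 40 or more, and at 9 of the 279 that rose by 60 or more (3.23%, 1.71 to 6.02%). Over all pairs the share was 53.5%, but sites that rose far started low, at median percentiles of 21.9, 16.6 and 10.9 in the Nanog line. These percentiles are among pairs, and they lie in the next-to-weakest 20% of the Nanog line's whole list, the last near its lower edge. There 35.5% of paired peaks had Sin3a, and in the weakest 20% the share was 30.0%.

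Large falls were spread more evenly. A fall of at least 20 points was seen at 16.1% of the pairs with Sin3a in both lists and at 12.3% of those without, against 14.2% over all pairs, a difference of 3.78 points of share (2.88 to 4.69). Sin3a lay at 59.8% of the pairs that fell by 20 points or more and at 61.8% (45.0 to 76.1%) of the 34 that fell by 60 or more. These started at median percentiles of 56.3 and 71.2 among pairs. Both lie in the next-to-strongest 20% of the Nanog line's whole list, where 60.4% of paired peaks had Sin3a. In the middle 20% of that list the share was 44.2%. Most shifts at sites with Sin3a in both lists were smaller, with quartiles of -14.3 and 3.03 points.

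The split between the classes was present at every strength. Within each 20% of pairs by mean rank, the median shift was below 0 with Sin3a in both lists and above 0 without Sin3a. In the middle 20% the medians were -8.59 and 7.55 points, and a rise of 20 points or more was seen at 209 of 2086 pairs with Sin3a and at 882 of 2478 without. In the strongest 20%, where ranks have little room to rise, the medians were -2.20 and 1.93 points. In the weakest 20% they were -2.98 and 1.24 points. It was present at every width too. Among pairs with a mean width from 300 to under 500 bp the medians were -5.50 and 3.85 points, and among those of 800 bp or more they were -2.47 and 1.70. The difference between the classes, -7.02 points over all pairs, was -11.0 when both lists were limited to peaks with a −log10 q of at least 10, and -10.6 with the 17000 strongest peaks of each list.

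The number of fragments over the summits was lower relative to all pairs at sites with Sin3a, and higher at sites without. It was recovered as a whole number from each peak's fold enrichment and p-value, and multiplied by the scaling of its list. At pairs with Sin3a in both lists, medians of 46 (Nanog line) and 47 fragments (Nanog + Sin3a line) gave a median scaled ratio of 0.867 (Nanog + Sin3a line over Nanog line, quartiles 0.766 and 0.985). At pairs without Sin3a the medians were 34 and 40 fragments, and the ratio was 0.990 (0.843 and 1.19). Over all pairs the ratio was 0.919. The interval of a single site's ratio lay above this value at 1597 of 25529 pairs (6.26%) and below it at 490 (1.92%). Of the 1597 pairs above, 1399 had no Sin3a peak, which is 11.8% of that class. Only 112 had Sin3a in both lists, which is 1.04% of theirs. Of the 490 pairs below, 281 had Sin3a in both lists and 155 had no Sin3a peak, which is 2.60% and 1.31% of these classes. Few single sites with Sin3a thus had an interval below 0.919. With 95% intervals, a small share of sites falls outside on each side through counting error alone. Whether the 281 pairs exceed that share was not tested, so they cannot be read as lower one by one. At pairs without Sin3a the share above, 11.8%, was far larger than the share below, 1.31%.

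The lists differed in depth as well as in the transgene. The Nanog + Sin3a list had been scaled by 1.37 ChIP tags per control tag and the Nanog list by 1.15, and their peaks had medians of 39 and 34 fragments over the summit. Line and depth cannot be told apart here. The expected background at the summit, taken from the control, differed by under 10% between the lists at 79.4% of pairs, and its median ratio was 1.00 in every class.

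**Figure D2:**
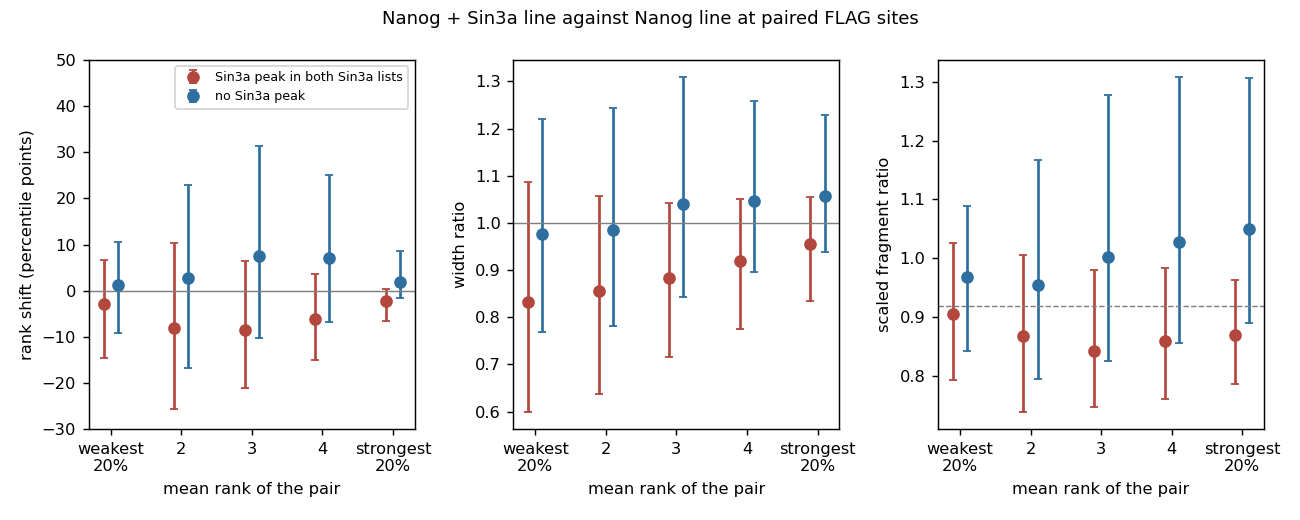
Rank shift in percentile points (left), width ratio (middle) and ratio of scaled fragment numbers at the summit (right), Nanog + Sin3a line against Nanog line, for pairs split in 5 equal groups by mean rank. Points are medians and bars the quartiles over pairs, red with a Sin3a peak in both Sin3a lists and blue with none. Grey lines mark no difference, and the dashed line the median ratio of all pairs (0.919). The red medians lie below the blue ones in every group and panel.

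The rank shift of a FLAG site did not grow steadily with the strength of its Sin3a peak. Pairs at a single Sin3a peak were split by the rank of that peak in its own list. In the Sin3a line's list the median FLAG shift was -2.50 points at the weakest 20% of Sin3a peaks, -4.59 at the middle 20% and -4.00 at the strongest 20%. In that of the Nanog + Sin3a line the values were -1.88, -4.64 and -3.93 points. The share of pairs that rose by 20 points or more did fall with Sin3a strength, from 10.7% to 3.90% in the first list and from 9.88% to 4.20% in the second. The median scaled fragment ratio was lower at the strongest than at the weakest 20%, at 0.859 against 0.897 and at 0.864 against 0.905. FLAG sites at the strongest Sin3a peaks also ranked higher in the Nanog line, at median percentiles of 76.6 against 50.2 and 75.0 against 52.3. Sin3a strength and FLAG rank were not separated here.

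Nor did the FLAG shift follow the difference in Sin3a rank between the Sin3a line and the Nanog + Sin3a line. Both of these lines received Sin3a and they differ in Nanog, while the FLAG lines differ in Sin3a. The series holds no Sin3a ChIP of the Nanog line, so the change of Sin3a that goes with the FLAG shift was not measured. For 9911 FLAG pairs at a single pair of matched Sin3a peaks, the FLAG shift was set beside the shift of the Sin3a rank from the Sin3a line to the Nanog + Sin3a line. Spearman's correlation across sites was 0.00988. Where Sin3a fell most, by a median of 22.3 points, the median FLAG shift was -3.46 points, and where Sin3a rose most, by a median of 21.5 points, it was -3.96.

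Among pairs without Sin3a, the rise was larger the farther the nearest Sin3a peak lay. The median shift was -0.83 points at 1200 pairs under 1 kb from a Sin3a peak of either list, 1.47 at 3074 pairs from 1 to under 10 kb, 3.43 at 3767 pairs from 10 to under 50 kb, 4.48 at 2641 pairs from 50 to under 200 kb, and 7.26 at 1357 pairs at 200 kb or more. The share that rose by 20 points or more went from 13.8% in the nearest group to 31.8% in the farthest. The width ratio went from 0.968 to 1.1 and the fragment ratio from 0.933 to 1.07. The shifts of neighbouring sites were only loosely related. Spearman's correlation between a pair and the next along the chromosome was 0.073 for gaps under 2 kb and 0.065 for gaps of 100 kb or more.

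The sites with the largest rises were among the weakest peaks of the Nanog line and among the strong ones of the Nanog + Sin3a line. None of the 6 named here had a Sin3a peak. On chromosome 13 at 97405179-97405758 the −log10 q was 2.24 in the Nanog line against 92.1 with added Sin3a, a move from percentile 0.554 to 98.8. The summits held 25 and 143 fragments, a scaled ratio of 4.82 (3.14 to 7.70). On chromosome 3 at 82975731-82976167 the −log10 q was 4.45 and 126, with 22 and 175 fragments and a ratio of 6.70 (4.29 to 10.97). This site had the highest −log10 q in the Nanog + Sin3a line of the 6.

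The other four rises were of like size. The site on chromosome 6 at 65220696-65221150 held 21 fragments in the Nanog line against 115 with added Sin3a, a ratio of 4.62 (2.88 to 7.74). On chromosome 8 at 75614366-75614862 the numbers were 29 and 143, a ratio of 4.16 (2.77 to 6.43). On chromosome 14 at 22303220-22303737 they were 21 and 104, a ratio of 4.17 (2.59 to 7.03). On chromosome 2 at 136898507-136898943 they were 25 and 89, a ratio of 3.0 (1.91 to 4.88). The 6 peaks were 1.42 to 2.42 times as wide in the Nanog + Sin3a line. Fragment numbers come from the same peak values as the ranks that chose these sites, so the ratios describe the sites and are no separate measure of the rise.

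Away from chromosome 18, whose sites are not named, the largest falls came from percentiles of 69.7 to 80.2 in the Nanog line, below its strongest sites. On chromosome 18 the largest fall was -71.2 points. On chromosome 11 at 77747560-77748058 the −log10 q was 26.3 in the Nanog line against 3.71 with added Sin3a, with 55 and 39 fragments and a ratio of 0.598 (0.386 to 0.917). The peak on chromosome 8 at 42433841-42434244 held 51 and 34 fragments, a ratio of 0.562 (0.353 to 0.884). Neither site had a Sin3a peak. The site on chromosome 6 at 95668161-95668696 did, in both Sin3a lists. It held 48 and 24 fragments, a ratio of 0.421 (0.247 to 0.702), the lowest among the named falls with a ratio.

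The remaining falls were like these. The site on chromosome 5 at 139410470-139410916, with a Sin3a peak in the Sin3a line only, held 58 and 34 fragments, a ratio of 0.494 (0.314 to 0.767). On chromosome 10 at 67498522-67498838 the numbers were 64 and 36, a ratio of 0.474 (0.306 to 0.724). On chromosome 19 at 10783927-10784279 the −log10 q was 20.7 against 2.20, and no ratio could be given, since the fragment number of the Nanog + Sin3a line was not recovered. The sites on chromosomes 10 and 19 had no Sin3a peak. All 6 peaks were narrower in the Nanog + Sin3a line, with width ratios from 0.353 to 0.804.

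The 4 pairs with the highest mean −log10 q over both lines are given as a description, since this choice fixes their place near the top of both rankings. On chromosome 1 at 134367337-134368231 the −log10 q was 330 in the Nanog line against 291 with added Sin3a, and on chromosome 3 at 133186984-133188417 it was 296 and 309. Both had a Sin3a peak in the Nanog + Sin3a line only. The site on chromosome 5 at 113678318-113678982, with Sin3a in both lists, had 268 and 297 fragments, a ratio of 0.934 (0.789 to 1.11). That on chromosome 17 at 49990270-49991069, without Sin3a, had 253 and 312, a ratio of 1.04 (0.878 to 1.23). The intervals of both ratios include 0.919.

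Peaks at Sin3a sites became narrower. At pairs with Sin3a in both lists the median width went from 596 bp in the Nanog line to 517 bp with added Sin3a, and the median ratio within pairs was 0.915 (0.909 to 0.920). At pairs without Sin3a the medians were 323 and 330 bp, and the ratio was 1.02 (1.01 to 1.03). Over all pairs it was 0.960. The peak was narrower in the Nanog + Sin3a line at 66.1% of the pairs with Sin3a in both lists and at 47.1% of those without, a difference of 18.9 points of share (17.7 to 20.2). The intermediate classes had ratios of 0.947 and 0.938.

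The narrowing at Sin3a sites was larger where FLAG itself ranked low. With Sin3a in both lists the ratio was 0.832 in the weakest 20% of pairs by mean rank and 0.954 in the strongest 20%. Without Sin3a it went from 0.977 to 1.06. By the strength of the Sin3a peak the order was different, with ratios of 0.930 and 0.932 at the weakest 20% of Sin3a peaks in the 2 Sin3a lists and 0.913 and 0.915 at the strongest 20%. Rank and width moved together only in part, with a Spearman correlation between shift and width ratio of 0.185 across sites with Sin3a in both lists and 0.435 across sites without.

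Single strong sites changed width by more than these medians. Among the strongest 20%, the 4 largest losses were all at sites with Sin3a in both lists, the class of 3116 of the 5179 pairs there. The peak on chromosome 7 at 128177441-128178586 was 1146 bp wide in the Nanog line against 289 bp with added Sin3a. On chromosome 8 at 46020593-46021683 the widths were 1091 and 331 bp, on chromosome 19 at 4099054-4100414 they were 1361 and 426 bp, and on chromosome 1 at 145623874-145624838 they were 965 and 316 bp. Their summits lay 3 to 18 bp apart. At the first of these the summit held 69 and 52 fragments, a ratio of 0.635 (0.434 to 0.924). The intervals of all 4 ratios included 0.919.

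The 4 largest gains of width in the same strongest 20% were all at sites without Sin3a, the class of 1571 of its 5179 pairs. The peak on chromosome 15 at 42505587-42506465 was 265 bp wide in the Nanog line against 879 bp with added Sin3a, and that on chromosome 2 at 84069408-84070724 was 488 and 1317 bp wide. On chromosome 9 at 56015090-56016118 the widths were 416 and 1029 bp. On chromosome 11 at 29868475-29869405 they were 399 and 931 bp, with 58 and 118 fragments at the summit, a ratio of 1.71 (1.24 to 2.39).

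Most summits of a pair lay within 50 bp of each other. Pairing by overlap limits their distance to about the width of the peaks, and grouped peaks are left out. The median distance between the summits of a pair was 37 bp, with quartiles of 16 and 76 bp, and the median signed distance was 0. At 61.1% of pairs they were no more than 50 bp apart, and at 5.69% over 200 bp. The median distance was 38 bp with Sin3a in both lists and 36 bp without Sin3a. The share within 50 bp was 59.9% and 62.8%, a difference of -2.87 points (-4.13 to -1.61). It ran from -8.47 to 2.99 points over the alternatives, and the sign turned when a Sin3a peak had to cover both summits, so the classes had no stable order on this measure.

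Summits lay closer together at stronger sites. The distance was 58 bp in the weakest 20% of pairs by mean rank and 24 bp in the strongest 20%. At equal rank it was larger with Sin3a, at 70 against 53 bp in the weakest and 26 against 21 bp in the strongest 20%. At equal width the classes were close, at 36 and 34 bp for pairs under 300 bp and at 40 and 41 bp for pairs of 800 bp or more. The share of summits over 200 bp apart was 7.96% with Sin3a in both lists and 3.52% without. At a mean width of 800 bp or more it was 14.8% and 14.5%.

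FLAG summits were as often farther from the Sin3a summit as closer to it. At pairs with Sin3a in both lists and a single Sin3a peak of the Nanog + Sin3a line, the FLAG summit lay a median of 89 bp from the Sin3a summit in the Nanog line, and with Sin3a added 91 bp. Of 10328 such pairs whose distance changed, 50.2% (49.3 to 51.2%) had the summit closer in the Nanog + Sin3a line. Against the Sin3a summits of the Sin3a line the share was 50.6% (49.6 to 51.5%). Both intervals include 50%.

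**Figure D3:**
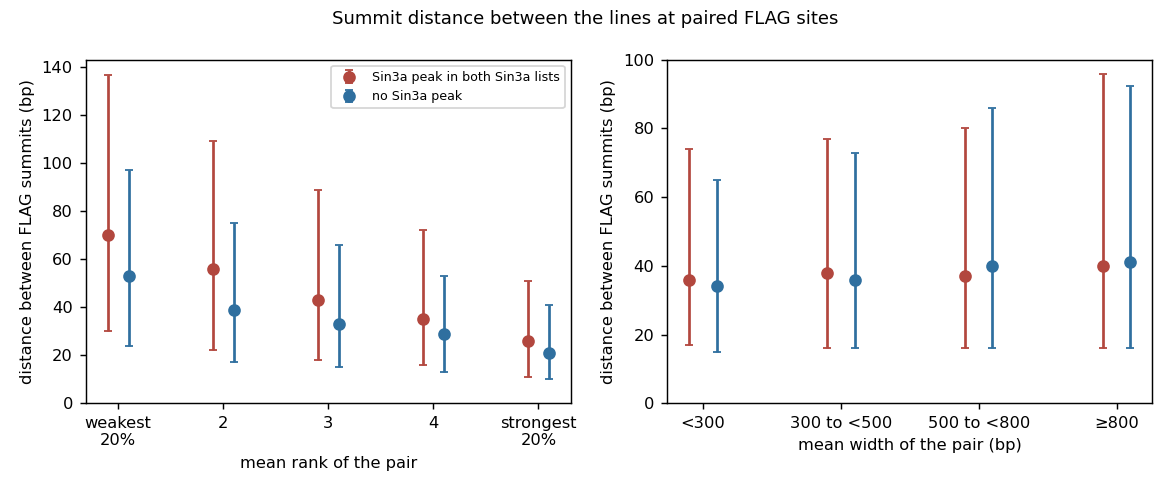
Distance in bp between the FLAG summits of a pair, by mean rank of the pair (left) and by its mean width (right). Points are medians and bars the quartiles over pairs, red with a Sin3a peak in both Sin3a lists and blue with none. The distance falls from 70 and 53 bp in the weakest 20% to 26 and 21 bp in the strongest, and differs little between the classes at equal width.

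The 4 largest summit distances among the strongest 20% of pairs were in wide peaks, all of the class with Sin3a in both lists. Over all ranks, that class made up 2448 of the 2920 pairs with a mean width of 800 bp or more. On chromosome 11 at 68911992-68914189 the summit lay at 68913581 in the Nanog line against 68912314 with added Sin3a, 1267 bp apart, with 54 and 58 fragments. On chromosome 8 at 86724408-86728663 the distance was 1103 bp, on chromosome 11 at 62363071-62365685 it was 1043 bp, and on chromosome 17 at 74925875-74928637 it was 956 bp. These peaks were 1950 to 4256 bp wide. The ratio of their summit fragments was 0.811 to 0.905, with intervals that include 0.919.

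The split between sites with and without Sin3a was seen on each chromosome. The median shift was below 0 for pairs with Sin3a in both lists on 20 of 20 chromosomes, from -9.36 to -2.92 points, and above 0 for pairs without Sin3a on 20 of 20, from 0.26 to 6.26. Over all pairs of a chromosome the median shift ran from -3.39 to 0.36 points. Chromosome 18 was lowest, followed by chromosomes 19 at -1.87 and 1 at -1.82. Chromosome 14 was highest, followed by chromosomes 3 at 0.14 and 10 at -0.14.

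Chromosomes also differed in how many peaks each list held. The ratio of peak numbers, Nanog + Sin3a line over Nanog line, ran from 0.866 on chromosome 18 to 1.06 on chromosome 13, and was 0.943 for the whole lists. It was above 1 on 3 chromosomes. Chromosome 13 held 1647 peaks against 1550, chromosome 14 held 814 against 793, and the X chromosome held 581 against 579. On these 3 chromosomes unpaired peaks of the Nanog + Sin3a line outnumbered those of the Nanog line, at 408 against 316, 217 against 193 and 180 against 173.

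One window stood apart. In 243 windows of 10 Mb with at least 20 pairs, the median shift had quartiles of -2.41 and 0.61 points. On chromosome 6 at 50000001-60000000 it was 23.4 points over 92 pairs (quartiles 8.68 and 39.5), and 51 of these pairs rose by 20 points or more. The next highest windows were on chromosome 13 at 80000001-90000000, with 8.05 points over 34 pairs, and on chromosome 3 at 10000001-20000000, with 7.54 points over 30 pairs. Away from chromosome 18, the lowest were on chromosome 6 at 20000001-30000000, with -11.6 points over 26 pairs, on chromosome 3 at 150000001-160000000, with -6.38 over 38 pairs, and on chromosome 6 at 40000001-50000000, with -6.12 over 40 pairs.

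In the high window of chromosome 6, sites rose whether or not they had Sin3a, though less with Sin3a in both lists. The median shift was 17.2 points at 38 pairs with Sin3a in both lists and 23.3 at 35 pairs without. The scaled fragment ratio was 1.30, against 0.919 over all pairs. In it lay 114 FLAG peaks of the Nanog line against 219 of the Nanog + Sin3a line, of which 13 and 121 were in 1 list only. The largest rises lay in its first 5 Mb. From 52000001 to 53000000, 23 of 24 pairs rose, by a median of 30.7 points, and from 54000001 to 55000000, 11 of 11 did, by a median of 36.6 points. The Sin3a peaks of the window moved the same way, with a median shift of 10.51 points over 50 Sin3a pairs from the Sin3a line to the Nanog + Sin3a line, against 0.047 over all Sin3a pairs. Without chromosome 6, the difference of median shift between pairs with Sin3a in both lists and pairs without was -7.03 points, against -7.02 with it. Both differences are against a list of the Nanog + Sin3a line, and whether the segment itself differs in that line was not tested.

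**Figure D4:**
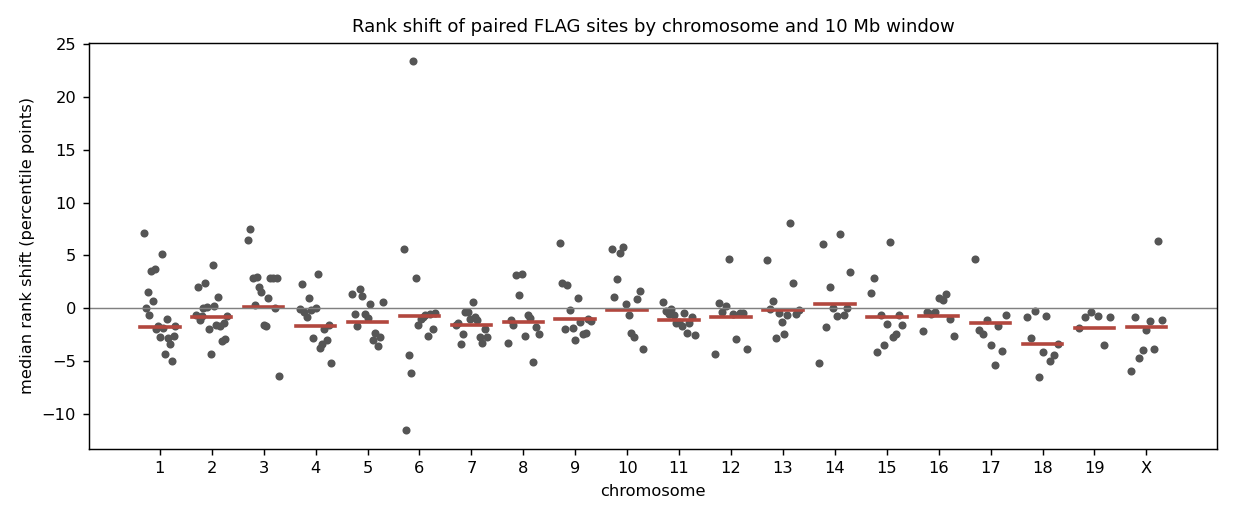
Median rank shift of paired FLAG sites, in percentile points, for 243 windows of 10 Mb (points, in order along each chromosome) and for whole chromosomes (red lines). Positive values mean a higher rank in the Nanog + Sin3a line. Chromosome medians lie between -3.39 and 0.36, and 1 window of chromosome 6 lies at 23.4.

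Peaks found in 1 list only were weak in both lines but differed in how often they lay at Sin3a. Their median −log10 q was 5.11 (Nanog line) and 5.52 (Nanog + Sin3a line), and their median width 240 and 243 bp, against 420 and 395 bp for paired peaks. A Sin3a peak of either list lay at 2594 of the 9928 peaks of the Nanog line only (26.1%, 25.3 to 27.0%). In the Nanog + Sin3a line the number was 735 of 7375 unpaired peaks (9.97%, 9.30 to 10.7%), a difference of -16.2 points (-17.3 to -15.1). It was -38.1 points with only peaks of a −log10 q of at least 10 and -37.5 with the 17000 strongest of each list, and it was -7.54 with partners defined by summits within 200 bp and -7.36 with only Sin3a peaks of a −log10 q of at least 10. The direction was the same for Sin3a peaks of both lists (15.7 and 5.07%), for those of the Sin3a line only (4.65 and 2.05%) and for those of the Nanog + Sin3a line only (5.81 and 2.85%). The FLAG peaks of the Nanog line overlapped 88.5% of Sin3a peaks from the Sin3a line and 87.3% of those from the Nanog + Sin3a line, and those of the Nanog + Sin3a line overlapped 81.6% and 80.3%. Unpaired peaks avoid the FLAG peaks of the other line by choice, and with them most Sin3a peaks. Low Sin3a shares among unpaired peaks, and the difference between the lines, are thus partly set by the matching.

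The difference grew with strength. In the weakest 20% of each FLAG list, Sin3a lay at 24.4% of the peaks of the Nanog line only and at 14.1% of those of the Nanog + Sin3a line only. In the middle 20% the shares were 29.5% and 5.64%, and in the next stronger 20% they were 30.7% and 1.85%. In the strongest 20% of the Nanog + Sin3a list, 0 of 243 peaks found in that line only lay at a Sin3a peak, which allows a share of up to 1.23% (3 counts of 243, with a Wilson upper limit of 1.56%). Of the 6350 paired peaks in the same 20%, 60.7% (59.5 to 61.9%) did. This contrast is partly set by the choice of unpaired peaks, since FLAG peaks of the Nanog line overlapped most Sin3a peaks. The Nanog line had only 3 unpaired peaks in its strongest 20%, also without Sin3a. With partners defined by summits within 200 bp, wide peaks whose summits differ count as unpaired, and 214 of 512 such peaks had Sin3a (41.8%).

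**Figure D5:**
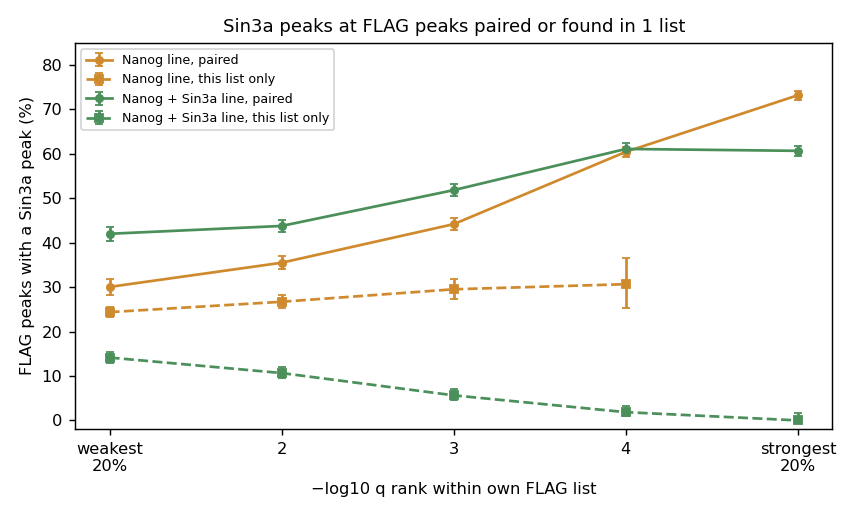
Percentage of FLAG peaks with a Sin3a peak of either list, by −log10 q rank within the own FLAG list, for paired peaks (solid lines) and peaks of that list only (dashed lines). Bars are 95% Wilson intervals, and the 3 unpaired peaks in the strongest 20% of the Nanog line are left out. Among peaks of the Nanog + Sin3a line only, the share falls from 14.1% in the weakest to 0 in the strongest 20%, while that of paired peaks rises from 42.0 to 60.7%.

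The strong peaks of the Nanog + Sin3a line only also lay farther from other peaks, which is partly set by their choice. They were chosen to overlap no FLAG peak of the Nanog line, and those peaks overlapped most Sin3a peaks. The 243 peaks lay a median of 26564 bp from the nearest FLAG peak of the Nanog line, 22642 bp from the next peak of their own list and 71212 bp from the nearest Sin3a peak. Paired peaks without Sin3a in the same 20% lay 8894 bp from the next peak of their list and 38720 bp from the nearest Sin3a peak. The 243 peaks were found on 20 chromosomes, with at most 26 on one, chromosome 2. Their median width was 377 bp, against 483 bp for the paired peaks without Sin3a. The background at the summit was at the genome-wide level for 60.5% of them and for 53.8% of the paired peaks.

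The strongest peaks of 1 list only were far apart in strength between the lines. Their fold enrichments were 14.4 to 17.4 in the Nanog + Sin3a line and 7.24 to 7.97 in the Nanog line. The fragment numbers given here are not scaled, and the lists differ in depth. In the Nanog + Sin3a line the peak on chromosome 8 at 60202544-60202941 reached a −log10 q of 90.8, with 141 fragments over its summit (119 to 166). It lay 8765 bp from the nearest peak of the Nanog line. The peak on chromosome 6 at 54038232-54038674, within the high window, had 116 fragments (95.9 to 139) and lay 116399 bp away. On chromosome 9 at 113579846-113580284 there were 113 fragments (93.1 to 136), and on chromosome 15 at 80677465-80677991 there were 112 (92.2 to 135). In the Nanog line the strongest were on chromosome 4 at 88286864-88287225 with 54 fragments (40.6 to 70.5), chromosome 8 at 63435822-63436371 with 51 (37.97 to 67.1), chromosome 13 at 100534809-100535139 with 54 (40.6 to 70.5) and chromosome 17 at 31520863-31521118 with 48 (35.4 to 63.6). None of these 8 peaks overlapped a Sin3a peak. The peaks of the Nanog line on chromosomes 4, 8 and 17 lay 214, 664 and 974 bp from a peak of the Nanog + Sin3a line, and that on chromosome 13 lay 10436 bp from one.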

How the data were processed

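Peak lists of 4 ChIP groups with 2 replicates each were used. Input and IgG samples were left out. Per the submitters' processing notes, build mm9, FastQC 0.10.1, Bowtie 1.0.0 and SAMtools 0.1.19 were used. For the peak caller, and for any pooling of replicates, the sources used here give nothing. Each deposited list gives a score, a fold enrichment (ratio), a −log10 p and a −log10 q per peak, as the authors' own values. The deposited score equals 10 times the −log10 q without decimals in 100% of rows.

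Peaks were paired where each shared at least 1 base with the other only, and ranked by −log10 q among pairs, with ties averaged. The span of a pair was classed by overlap with the Sin3a lists. Whole fragment numbers fitted fold and −log10 p for at least 98.9% of peaks of each list. Depth rests on these numbers, with total reads unknown. Intervals are Wilson, Newcombe, exact Poisson, exact conditional binomial for ratios, and order-statistic for medians. Matching and recovery were tested on simulated data.

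Named sites were the 4 strongest pairs, the 6 largest rises and 6 largest falls in rank among pairs at or above percentile 50 in a list, the 4 extremes in width and summit distance among the strongest 20%, the 4 strongest unpaired peaks of each list, and the 3 extreme chromosomes and windows of 10 Mb. Sites on chromosome 18 were counted but not named. The members, lists and rules were chosen with earlier results of these data known. No genome of build mm9 was used here, so no sequence or gene is given. Matplotlib 3.10.9, SciPy 1.17.1, pandas 2.3.3 and NumPy 2.4.6 ran under Python 3.11.15.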

Additional observations from a re-analysis of the deposited data

How the results depend on the processing

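No paired analysis was possible because the 2 replicates of a group share 1 list, and none could be left out. Of 84 recomputed main values 47 stayed within their interval, 36 moved and 1 turned in sign. The ranks of the named rises and falls, by fold or −log10 p, kept their direction in 24 of 24 cases. Promoter windows were not run. Depth limits single sites, and the cause of each change below was not tested beyond the construction of the alternative.

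With at least 50% of the shorter peak shared, 68.0% of the Nanog line's and 72.1% of the Nanog + Sin3a line's peaks were paired, and the difference in Sin3a share between unpaired peaks was -15.0 points. With summits within 200 bp these were 68.1%, 72.2% and -7.54 points, 27.6% of pairs shifted by 20 points or more, the Sin3a class differences were -0.18 points for summits within 50 bp and -0.114 for the width ratio, and 41.8% of the strongest unpaired peaks of the Nanog + Sin3a line had Sin3a, since overlapping peaks then count as unpaired.

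With a −log10 q of at least 5, the paired shares were 68.3 and 74.0%, the unpaired difference -22.2, the pairs past 20 points 30.0%, and the class differences -7.94 points in shift and -5.70 for summits. With at least 10 they were 70.2 and 76.1%, -38.1, 32.3%, -11.0 and -8.24, and -0.115 in width ratio. With the 17000 strongest peaks both paired shares were 73.8%, and the others -37.5, 32.3%, -10.6 and -8.47. With the 36000 strongest both paired shares were 69.9%.

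With Sin3a peaks over both summits, the unpaired difference was -14.4 and the summit difference turned to 2.99 points. With Sin3a peaks of a −log10 q of at least 10 only, the unpaired, shift, summit and width differences were -7.36, -5.17, -0.63 and -0.0710.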
